A study of Citrus x limon with 9 samples.

Results

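Splicing removes introns from precursor mRNA, and the lemon bud genes described here match, by name, proteins of that machinery or RNA-binding proteins. They were chosen by words in the protein match that the deposited expression table gives for each gene: glycine-rich RNA-binding, serine/arginine-rich, small nuclear ribonucleoprotein, pre-mRNA-processing, pre-mRNA-splicing or splicing factor. The words picked 47 of 22353 genes, and 44 of the 47 reached an expression level of at least 1 FPKM in at least 3 libraries, as did 17729 genes in all. FPKM counts the fragments of a gene relative to its transcript length and to the mapped reads of the library, so levels can be compared between genes. Each gene was put in 1 of 6 classes by the first of these phrases, in that order, that its match holds, which gave 5 glycine-rich RNA-binding, 3 serine/arginine-rich, 14 small nuclear ribonucleoprotein, 4 pre-mRNA-processing, 10 pre-mRNA-splicing and 11 other splicing factor genes. The classes follow the wording, so that an RSP40-like gene stood among the other splicing factors and an SF2-like gene among the pre-mRNA-splicing factors, although RSP40 is named as arginine/serine-rich in its match and SF2 is a founding member of the serine/arginine-rich family. The glycine-rich genes Cs5g11940, Cs6g14160 and Cs8g14850 match proteins named as mitochondrial. Whether they take part in splicing in the nucleus was not tested.

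The spliceosome assembles anew on each intron from small nuclear ribonucleoproteins, which are particles of a small RNA and its proteins. The U1 particle recognizes the 5′ splice site, the U2AF heterodimer marks the 3′ splice site, the U2 particle binds the branch site, and the U4, U5 and U6 particles then join and are rearranged by RNA helicases before the intron is cut out. Serine/arginine-rich proteins and some glycine-rich RNA-binding proteins bind the transcript itself and influence which sites are used. In Arabidopsis the glycine-rich protein GRP7 is under the circadian clock and acts on the splicing of its own transcript.

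The trees were lemon (Citrus × limon, cultivar Femminello) grafted on trifoliate orange, and each library was made from the terminal bud and the buds next to it. Stage 1 was taken from watered trees 1 week before the water deficit, stage 2 from trees 1 week into the deficit, and stage 3 from trees 1 week after full watering had resumed. Each stage had 3 biological replicates, 9 libraries in all, and per the study's methods each replicate was a group of 3 trees. The study used the deficit to induce flowering. It reported that floral buds began to differentiate within days of the onset of deficit and that flower buds could be seen at stage 3. There was no library from trees kept watered at the dates of stages 2 and 3. The calendar date, the age of the bud and its floral development thus cannot be told apart from the water supply. The hour at which buds were taken is not given in the sources used here.

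The table held FPKM only, so the read totals are unknown, and each library had 19210 to 20099 genes above 0. The FPKM step that corresponds to 1 read was estimated as the commonest ratio of values under 1 FPKM to those of stage 1 replicate 2. By this estimate stage 2 replicate 3 stood apart, at 1.13 times, against 0.972 to 1.07 times in the other libraries. The estimate is rough, since only 33.7% of the low values in stage 2 replicate 3 lay within 3% of that ratio. In the other libraries set against stage 1 replicate 2 the share was 46.1% to 54.8%. Over all genes past the filter, stage 2 replicate 3 was the highest stage 2 library for 8238 and the lowest for 4765 of 17729. Among the 44 splicing genes it was the highest for 18 and the lowest for 18, and stage 2 replicate 1 was the highest for 18 and the lowest for 16. The median coefficient of variation of these genes among the replicates of a stage was 5.22% at stage 1, 7.92% at stage 2 and 7.93% at stage 3, against 9.20%, 11.7% and 10.5% over all genes past the filter. A gene matching SHOOT MERISTEMLESS, a regulator that keeps the shoot apex undifferentiated, lay between 52.2 and 75.6 FPKM in every library. Its mean was higher at stages 2 and 3 (70.5 FPKM at each) than at stage 1 (57.3 FPKM), and the stage 1 libraries did not overlap with those of either. Other genes listed as shoot meristem markers differed widely, with a knotted-1-like 2 gene at 70.3 to 148 FPKM and a WUSCHEL-like gene at 0 to 1.14 FPKM.

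The splicing genes were well expressed. Their median level over the 9 libraries was 34.2 FPKM among the 44 genes past the filter, compared with 13.6 FPKM over all genes past it. At stage 1 the highest level belonged to the U2AF large subunit B gene Cs1g23840 (138 ± 2.11 FPKM, mean ± SD, n = 3), followed by the RSP40-like gene Cs9g16860 (136 ± 5.0), the RS2Z33-like gene Cs7g28020 (126 ± 3.60), the glycine-rich gene Cs5g11940 (125 ± 2.35) and the glycine-rich gene Cs8g06360 (114 ± 9.93). The stage 1 replicates of the U2AF and RSP40-like genes overlapped, as did those of the RS2Z33-like gene and Cs5g11940, whereas the other neighbours in this order were apart. Of the 47 genes, 23 (48.9%) had more than 1 annotated transcript, against 33.6% of all genes in the table, and the largest number was 8, for the RS2Z33-like gene. Values were given per gene, so forms of 1 gene that differ in splicing could not be told apart. The gene identifiers placed 38 of the 47 genes on numbered chromosomes of the sweet orange assembly used for mapping, with 8 on chromosome 7, and left 9 unplaced.

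The remaining 3 genes did not pass the filter. The SF3B4-like genes Cs1g22370 and Cs1g22415 lay between 0 and 1.44 FPKM and between 0 and 0.64 FPKM, and a U11/U12 35 kDa gene, orange1.1t03699, lay between 0 and 0.29 FPKM. A mitochondrial glycine-rich RNA-binding protein 4 gene, Cs8g14850, passed only through its libraries of stages 2 and 3, and its 9 values ranged from 0 to 2.25 FPKM.

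Most of the splicing genes changed little between stages. Differences were tested with limma on log2(FPKM + 1) over all 17729 genes past the filter, with a Benjamini-Hochberg adjusted p under 0.05 taken as passing, and a gene was called when its log2 fold change was also at least 1 in size. All fold changes below are on that log2 scale, which understates the change of low genes. At stage 2 against stage 1, 10 of the 44 splicing genes (22.7%) passed, against 38.4% of all genes tested. Of the 10, 8 rose (18.2%, against 21.2% of all genes) and 2 fell (4.55%, against 17.1%). The median log2 fold change was 0.14, compared with 0.05 over all genes, and 39 of the 44 genes had a fitted change of less than 0.5 in size. The median size was 0.17, compared with 0.29 over all genes tested, so most of all genes tested were also under 0.5. The share of all genes that rose and fell depended on the scaling: after division of each library by its median, 16.9% rose and 21.2% fell, the median of all genes was -0.016, and the splicing genes had 6 rises, 3 falls and a median of 0.068.

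At stage 3 against stage 2, 17 of the 44 genes (38.6%) passed, against 36% of all genes. Here 14 fell (31.8%, against 19.8% of all genes) and 3 rose (6.82%, against 16.2%), and the median log2 fold change was -0.20, compared with -0.06 over all genes. At stage 3 against stage 1, 12 of 44 (27.3%) passed, against 27.3% of all genes, with 6 higher (13.6%, against 14.4%) and 6 lower (13.6%, against 12.9%). This balance depended on the scaling, with 4 higher and 10 lower after median scaling (12.6% and 15.7% of all genes) and 5 higher and 9 lower after quantile normalization (13.5% and 14.8%). The 3 comparisons share libraries, so a high value at stage 2 enters a rise and a fall alike. A single gene was called at each comparison. Cs8g06360 was called higher at stage 2 against stage 1, where 7.85% of all genes were called (3.18% higher, 4.66% lower), and lower at stage 3 against stage 2, where 7.46% were called (4.92% higher, 2.54% lower). The SLU7-like gene Cs9g10460 was called higher at stage 3 against stage 1, where 4.93% were called (2.69% higher, 2.24% lower).

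**Figure D1:**
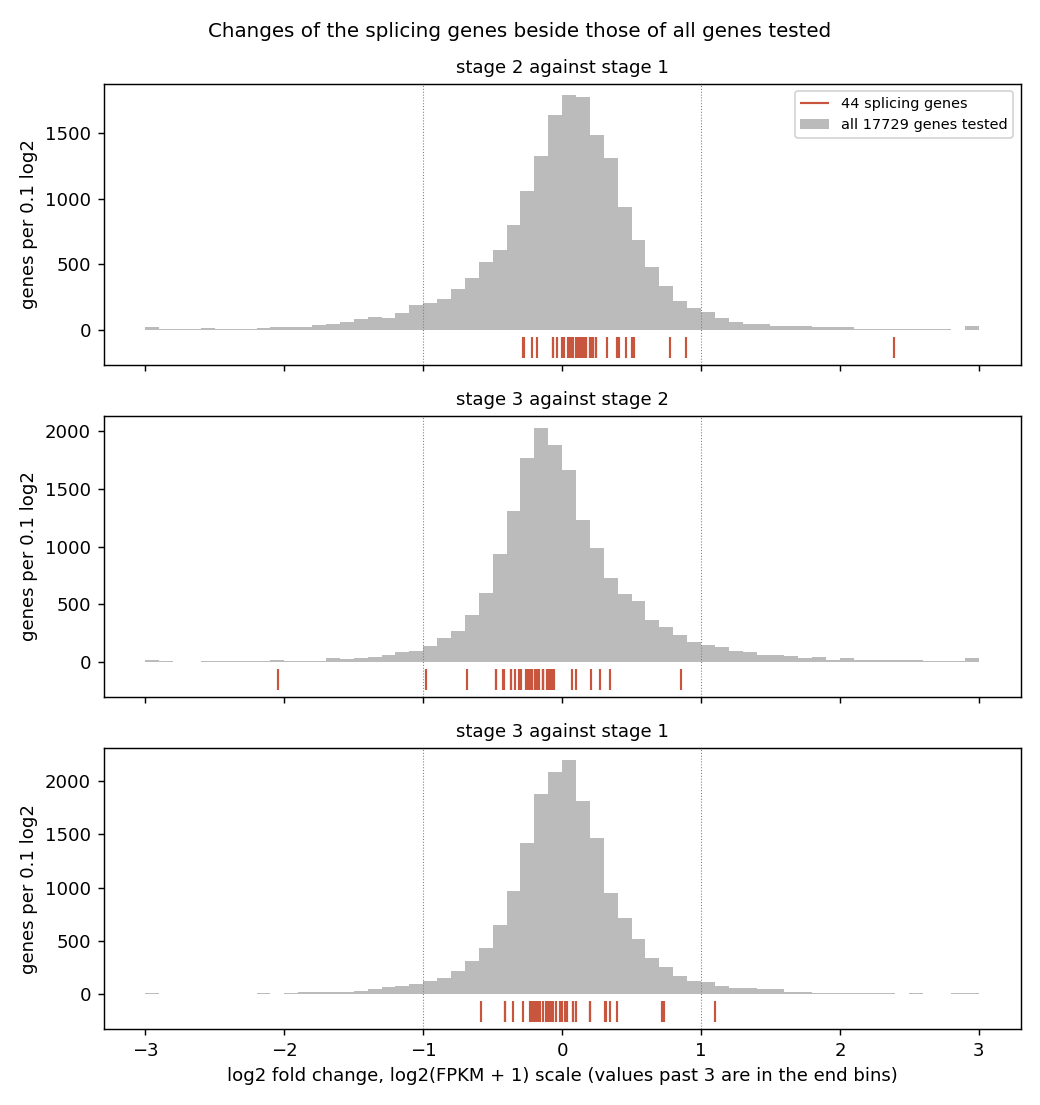
Distribution of log2 fold changes (x axis, log2(FPKM + 1) scale) for all 17729 genes tested (grey bars, genes per bin) with the 44 splicing genes as red ticks under the bars, for the 3 comparisons; dotted lines mark a log2 fold change of 1 in either direction. The ticks crowd near 0, with a median of 0.14 at stage 2 against stage 1 and of -0.20 at stage 3 against stage 2, and 1 tick, Cs8g06360, lies far out at 2.39 and then at -2.04.

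By replicate ranges, 13 of the 44 genes had all 3 stage 2 libraries above all 3 stage 1 libraries and 4 had them all below, against 27.8% and 22.2% of all genes tested. The 13 include Cs8g14850, which passed the filter only through stages 2 and 3, so its place above stage 1 was partly fixed by the filter. At stage 3 against stage 2, 3 genes had every stage 3 library above and 20 had every one below, against 19.9% and 26.5% of all genes. Between stages 3 and 1 the numbers were 7 above and 12 below, against 22.2% and 21.4%. From stage 2 to stage 3, 38 of the 44 fitted changes (86.4%) were below 0, of which 14 passed the test, and 56.5% of the fitted changes of all genes were below 0. In size, 40 of the 44 were under 0.5, and the median size was 0.22, compared with 0.27 over all genes tested.

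**Figure D2:**
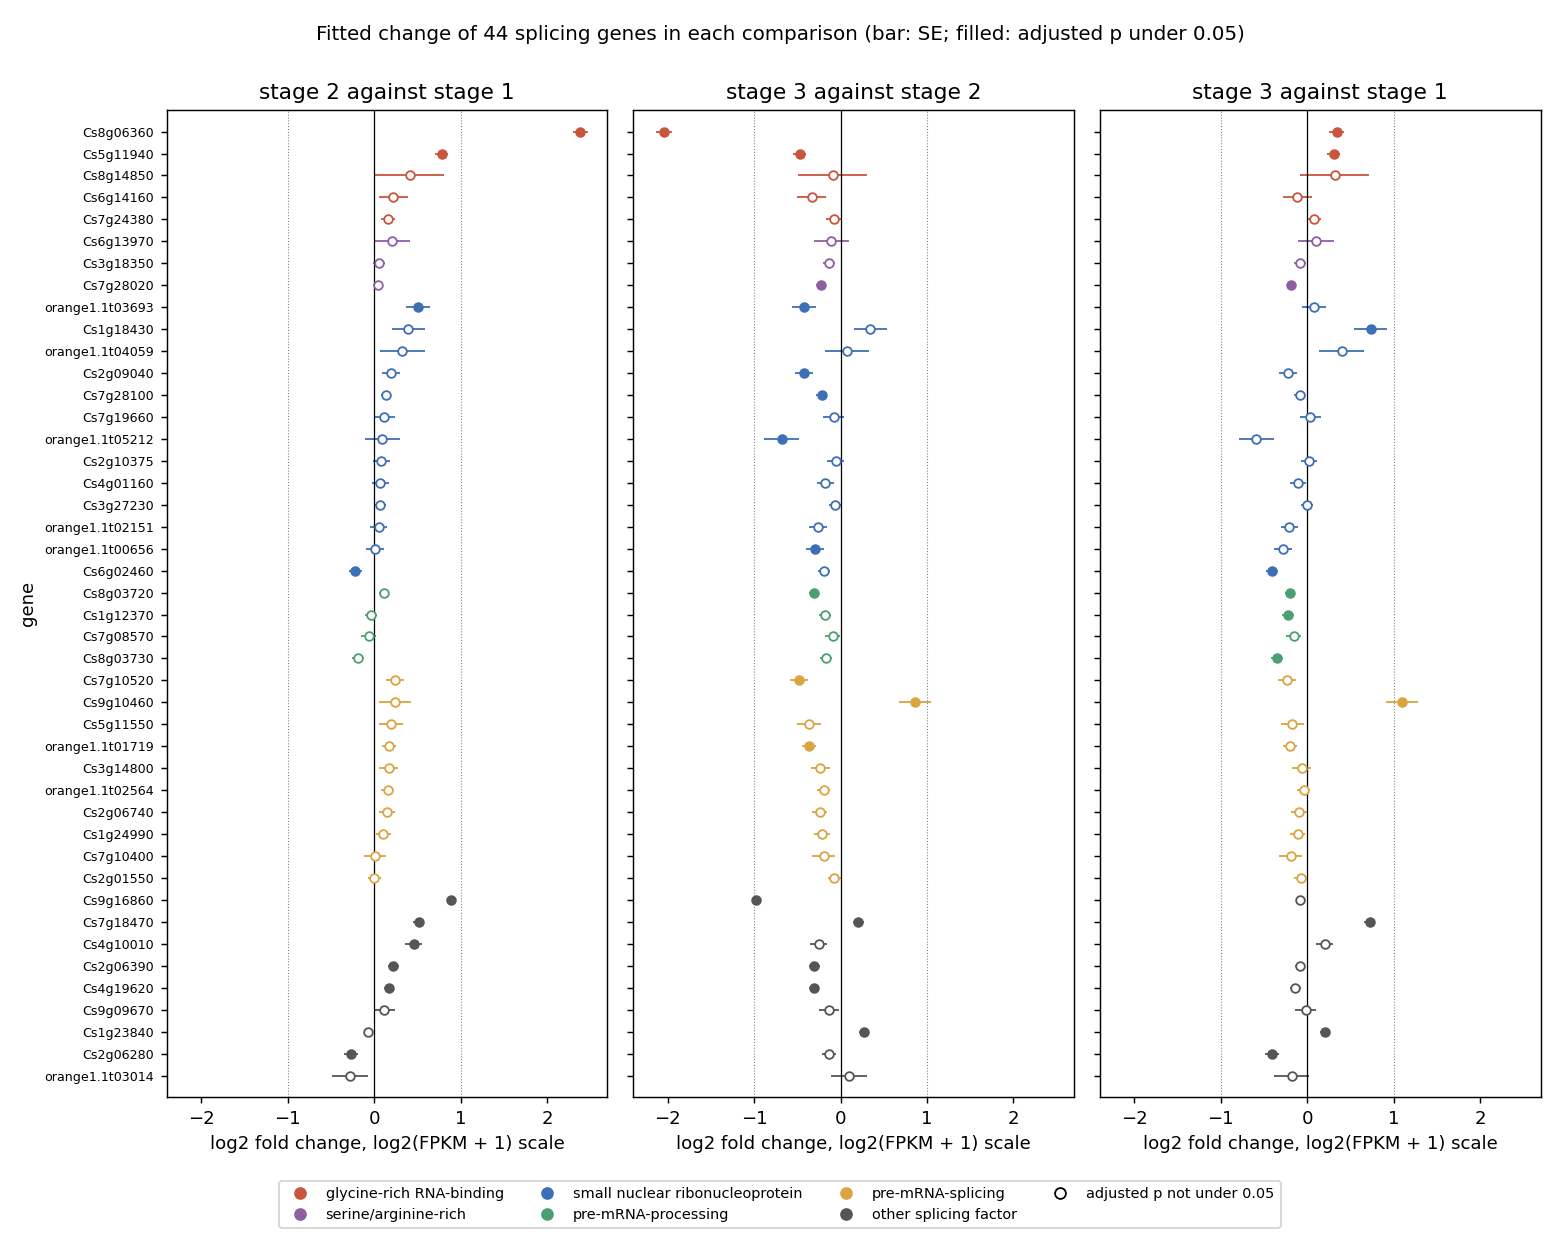
Fitted log2 fold change (x axis, log2(FPKM + 1) scale) with its standard error for each of the 44 splicing genes past the filter (rows, coloured by class) in the 3 comparisons; filled points passed an adjusted p of 0.05. In the first panel 37 points lie above 0 and 7 below, where 44.9% of all genes tested lie below 0. The 37 include Cs8g14850, which passed the filter only through stages 2 and 3. In the second 6 lie above 0 and 38 below, where 56.5% of all genes tested lie below 0.

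The glycine-rich RNA-binding genes held the largest change. Cs8g06360, whose best match is a glycine-rich RNA-binding protein with no further number, had 104, 123 and 115 FPKM at stage 1, 637, 639.6 and 526 FPKM at stage 2, and 136.5, 142 and 155 FPKM at stage 3. The stage 2 libraries stood far above all others, and every stage 3 library was above every stage 1 library. The mean rose 5.27-fold from 114 ± 9.93 to 601 ± 64.8 FPKM (log2 fold change 2.39, SE 0.09, limma adjusted p = 4.94e-09), and then came down 4.16-fold to 144.5 ± 9.80 FPKM (-2.04, adjusted p = 1.53e-08). It ranked 53 of 17729 from the largest rise at stage 2 and 64 from the largest fall at stage 3, and its stage 2 level was at the 99.6 percentile of the genes tested. The residual difference between stages 3 and 1 was 0.34 on the log2 scale (adjusted p = 0.0128), a call that was lost without stage 1 replicate 1 (adjusted p = 0.057) or stage 3 replicate 3 (0.0512) and without the trend in limma (0.0519).

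Cs5g11940, a glycine-rich RNA-binding protein 3 gene with a predicted mitochondrial product, took the same course on a smaller scale. It had 124, 124 and 128 FPKM at stage 1, 243, 220.2 and 187 FPKM at stage 2, and 153, 153 and 157.5 FPKM at stage 3. No library of a stage overlapped with those of another, although the stage 2 replicates spread widely. The rise was 1.73-fold (0.78, SE 0.08, adjusted p = 1.4e-05) and the fall 0.47 on the log2 scale (adjusted p = 0.000636). Stage 3 stayed 0.31 above stage 1 (adjusted p = 0.0128), which did not hold after median scaling (0.0516) or without the trend (0.053).

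The other 3 members of the class did not pass in any comparison. The glycine-rich 10-like gene Cs7g24380 had 33.2 to 33.4 FPKM at stage 1, 33.1 to 41.2 at stage 2 and 34.2 to 36.7 at stage 3. Another gene of the glycine-rich 3 type, Cs6g14160, ranged from 9.75 to 18.7 FPKM over the 9 libraries. Of the class, 2 of 5 genes thus rose at stage 2 (21.2% of all genes rose), 2 of 5 fell from stage 2 to stage 3 (19.8%), and 2 of 5 ended above stage 1 (14.4%). The last count became 0 without the trend, 1 after median scaling, and 1 without stage 1 replicate 1 or stage 3 replicate 3, and it was 3 without stage 3 replicate 1.

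Because FPKM values are per length, the class sums could be compared. The summed level of the 47 genes was 1970 ± 13.6 FPKM at stage 1, 2775 ± 118 at stage 2 and 1973 ± 9.19 at stage 3 (n = 3). Cs8g06360 alone made up 5.79%, 21.7% and 7.33% of these sums. The 4 genes with the largest rises among those that passed, Cs8g06360, Cs9g16860, Cs5g11940 and Cs7g18470, together had 425 ± 14.6, 1142 ± 99.8 and 510.0 ± 8.94 FPKM, whereas the other 43 genes had 1545 ± 11.1, 1633 ± 22.4 and 1463 ± 5.51 FPKM. These 4 genes were set apart after their values had been seen, and the split is a description.

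**Figure D3:**
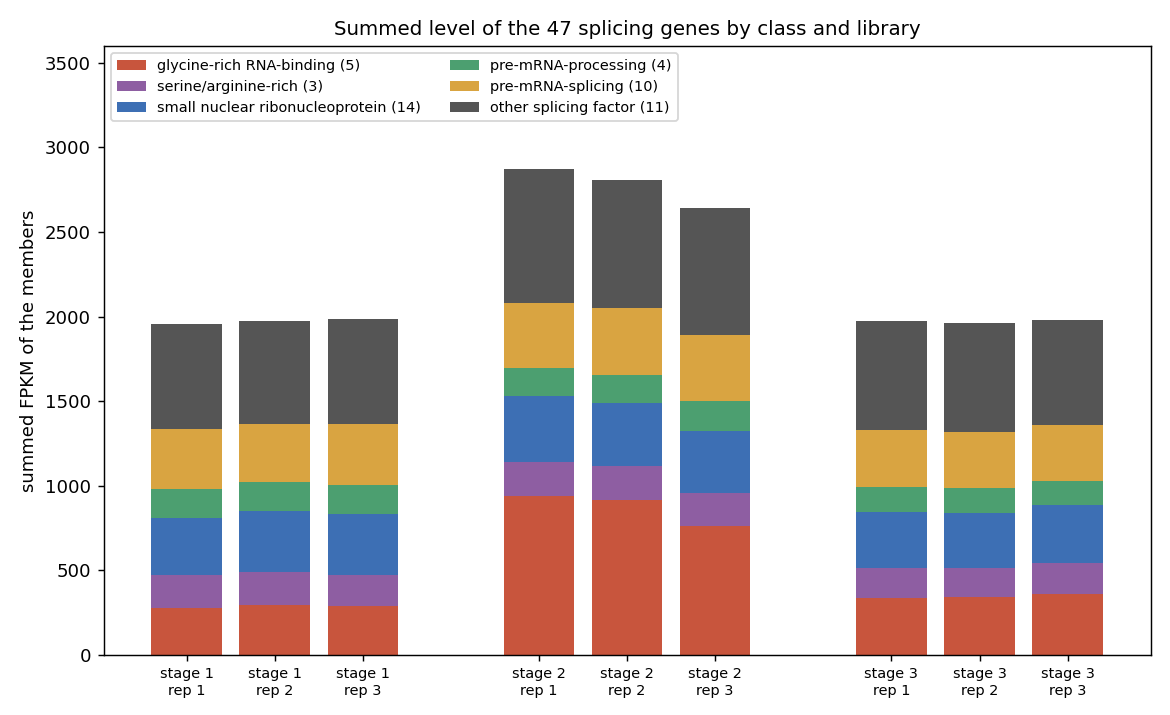
Summed FPKM (y axis) of the 47 splicing genes in each of the 9 libraries, stacked by class, with the number of genes of each class in the key. The sums lie between 1956 and 1983 at stage 1 and between 2643 and 2871 at stage 2, and the glycine-rich RNA-binding segment grows from 286 ± 9.07 to 871 ± 97.3 FPKM.

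The serine/arginine-rich proteins bind exonic enhancers and recruit the U1 particle and U2AF. The RSP40-like gene Cs9g16860, of the plant RS subfamily, had the second largest fitted rise at stage 2 among the members. Its 9 values were 130.4, 140.3 and 137 FPKM at stage 1, 259, 252 and 249 FPKM at stage 2, and 132, 126 and 126 FPKM at stage 3. The stage 2 libraries were apart from all others and close to each other, while those of stages 1 and 3 overlapped. The level rose 1.86-fold (0.89, SE 0.05, adjusted p = 9.1e-08) from 136 ± 5.0 to 253 ± 5.15 FPKM, and fell by 0.98 on the log2 scale (adjusted p = 4.17e-08) to 128 ± 3.76 FPKM. Stage 3 differed from stage 1 by -0.08 (adjusted p = 0.226), a difference that passed after quantile normalization (-0.14, adjusted p = 0.0368).

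The remaining genes of this family showed no such course. RS2Z33, a plant-specific serine/arginine-rich protein with zinc knuckles, is matched by Cs7g28020, which had 128, 128 and 122 FPKM at stage 1, 134, 131 and 124 FPKM at stage 2, and 106, 108 and 118 FPKM at stage 3. Every stage 3 library was below every library of the other stages. The change from stage 2 to stage 3 was -0.22 (adjusted p = 0.01), lost after median scaling (0.0515). The difference of -0.18 between stages 3 and 1 (adjusted p = 0.0354) was lost when any 1 of 5 libraries was left out, namely each stage 1 replicate and stage 3 replicates 1 and 2 (adjusted p between 0.0518 and 0.12), and without the trend (0.114).

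The gene Cs3g18350, matching SRSF2, ranged from 53.5 to 66.2 FPKM over the 9 libraries, and Cs6g13970, matching SRSF4, from 3.65 to 6.92 FPKM. The SF2-like gene orange1.1t02564 ranged from 51.8 to 70.1 FPKM. None of these 3 passed in any comparison, although orange1.1t02564 passed as lower at stage 3 against stage 2 without stage 2 replicate 3 (-0.25, adjusted p = 0.0302). Within the class of 3 serine/arginine-rich genes, the count passing in limma was 0 at stage 2 against stage 1, also at an unadjusted p under 0.05 and without the trend, and 1, lower, in each of the other comparisons. That single gene was the RS2Z33-like one, so these counts became 0 under the alternatives given for it. Over all genes, 38.4% passed at stage 2 against stage 1. Those lower made up 19.8% at stage 3 against stage 2 and 12.9% at stage 3 against stage 1.

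The U2AF genes moved in different directions. U2AF has a large subunit, which binds the polypyrimidine tract, and a small subunit, which contacts the AG at the end of the intron. The small subunit A gene Cs7g18470 had 50.9, 50.1 and 48.2 FPKM at stage 1, 75.6, 72.7 and 66.5 FPKM at stage 2, and 81.8, 84.8 and 81.3 FPKM at stage 3. The libraries of the 3 stages did not overlap, and the level rose in both steps, by 0.52 (adjusted p = 5.51e-05) and by 0.21 (adjusted p = 0.022). At stage 3 it was 1.66 times its stage 1 level (0.72, SE 0.06, adjusted p = 5.04e-06). The rise from stage 2 to stage 3 did not pass without stage 2 replicate 3 (0.0607), without stage 3 replicate 2 (0.0739) or without the trend (0.0615).

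The large subunit B gene Cs1g23840 had 135.5, 139.7 and 138 FPKM at stage 1, 137, 136 and 122 FPKM at stage 2, and 161, 160.1 and 155 FPKM at stage 3. It rose in the step to stage 3, by 0.27 (adjusted p = 0.00253), while stage 2 differed from stage 1 by -0.07 (adjusted p = 0.357). Its stage 3 level was 0.20 above stage 1 (adjusted p = 0.0169), a call lost under 7 alternatives, among them leaving out stage 1 replicate 1 (0.0623) or 3 (0.05) or stage 3 replicate 1 (0.055) or 2 (0.0527).

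The large subunit A gene Cs2g06280 went the other way, with 45.4, 39.9 and 43.9 FPKM at stage 1, 37.1, 33.9 and 35.3 FPKM at stage 2, and 33.1, 34.1 and 29.3 FPKM at stage 3. It was lower at stage 2 than at stage 1 by 0.27 on the log2 scale (-0.27, adjusted p = 0.0195), a call lost without stage 1 replicate 1 (0.0789) or 3 (0.0636) or stage 2 replicate 2 (0.0675). At stage 3 it was lower than at stage 1 (-0.41, adjusted p = 0.00276) with no overlap. The remaining large subunit gene, Cs9g09670, lay between 11.6 and 16.5 FPKM and did not pass.

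Ratios between these genes were formed after their values had been seen and are descriptions. The small subunit had 0.246 to 0.262 FPKM per FPKM of the 3 large subunit genes summed at stage 1, 0.383 to 0.403 at stage 2 and 0.392 to 0.415 at stage 3. The ratio of large subunit B Cs1g23840 to large subunit A Cs2g06280 was 2.99 to 3.50 at stage 1, 3.44 to 4.00 at stage 2 and 4.69 to 5.30 at stage 3. The first ratio was set apart at stage 1 and the second at stage 3.

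**Figure D4:**
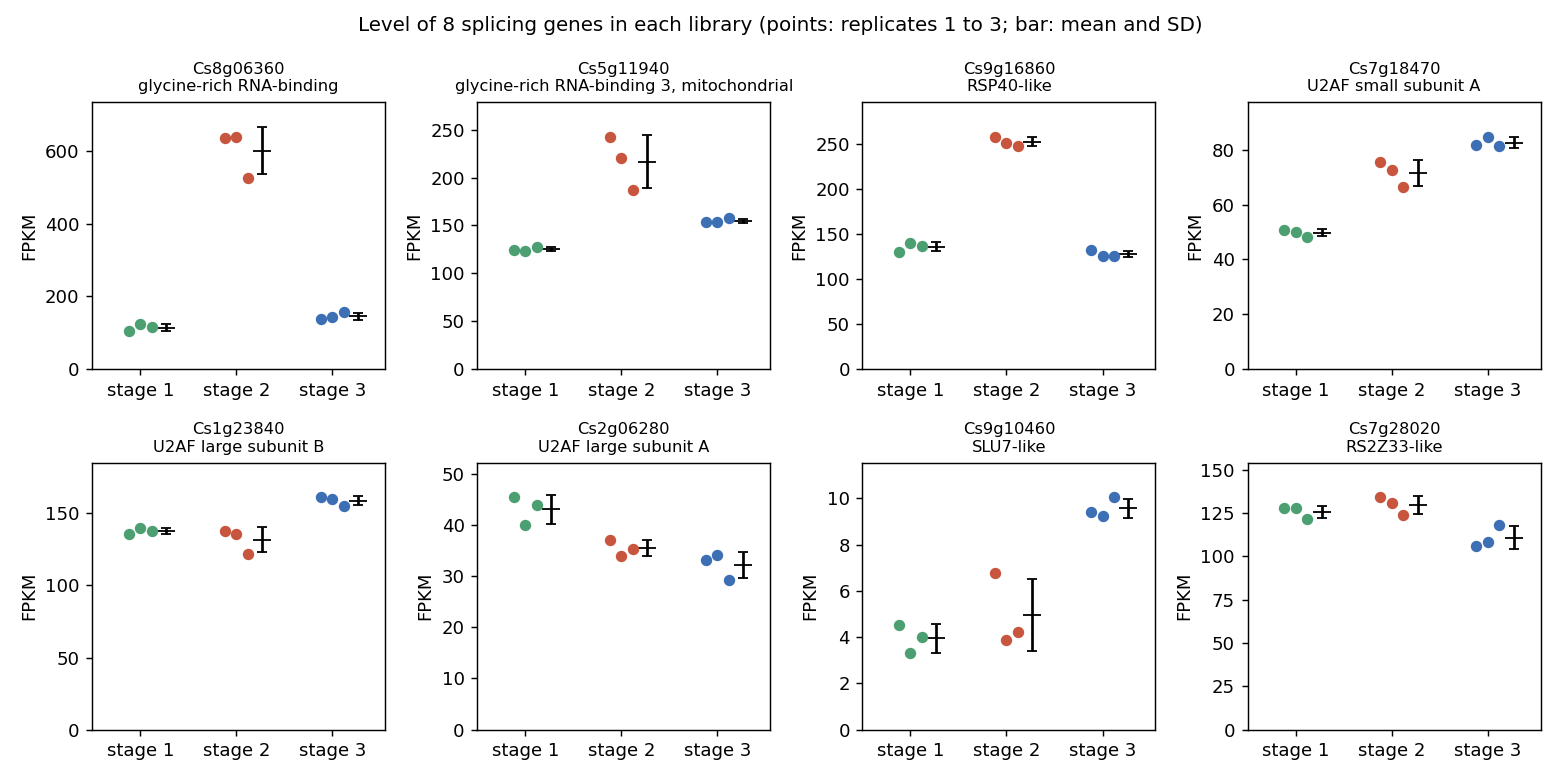
FPKM (y axis, from 0) of 8 splicing genes in each library by stage; points are replicates 1 to 3 and the bar beside them is the mean and SD. Cs8g06360, Cs5g11940 and Cs9g16860 peak at stage 2, Cs7g18470 rises in both steps to 82.6 ± 1.90 FPKM, Cs2g06280 is lowest at stage 3, and the SLU7-like Cs9g10460 stands at 9.24 to 10.04 FPKM at stage 3 against 3.30 to 6.76 FPKM earlier.

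The U2 particle contains the SF3A and SF3B complexes, and SF3B1, a part of the latter, lies next to the branch site. The following 2 genes fell outside the rule for naming genes and were chosen after their values had been seen. SF3B1 (Cs4g19620) had 52.5, 50.9 and 53.0 FPKM at stage 1, 57.5, 57.2 and 61.5 at stage 2, and 47.2, 48.9 and 45.9 at stage 3, with no overlap between stages. Its fall from stage 2 to stage 3 was 0.30 on the log2 scale (-0.30, adjusted p = 0.00198). Its rise at stage 2 of 0.17 (adjusted p = 0.0427) was lost when any of 8 libraries was left out, all but stage 3 replicate 3, with adjusted p between 0.0517 and 0.129. Median scaling reduced that rise to 0.09 (adjusted p = 0.186), and it did not pass after quantile normalization (0.1) or without the trend (0.0858). SF3B2 (Cs2g06390) had 84.5 to 95.0 FPKM at stage 1, 98.4 to 111 at stage 2 and 82.7 to 86.3 at stage 3. It rose by 0.22 (adjusted p = 0.0158), lost without stage 1 replicate 1 (0.0698) or 2 (0.0506), after median scaling (0.15, 0.0579) and without the trend (0.0558), and then fell (-0.31, adjusted p = 0.00279). The SF3A2-like gene orange1.1t03014 ranged from 30.9 to 66.6 FPKM, with replicates so far apart that no comparison passed.

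The U2 B″ protein binds a stem-loop of the U2 RNA, and 2 genes match it. Cs1g18430 had 11.1, 10.2 and 7.53 FPKM at stage 1, 9.36, 13.1 and 16.9 FPKM at stage 2, and 16.4, 15.4 and 17.7 FPKM at stage 3. The stage 2 libraries spanned most of the range. Stage 3 was 1.72 times stage 1 (0.74, SE 0.19, adjusted p = 0.0136), which did not pass without stage 1 replicate 3 (0.0573). The steps of 0.39 and 0.34 did not pass, but the first did without stage 2 replicate 1 (0.60, adjusted p = 0.0185) and the second without stage 2 replicate 3 (0.53, adjusted p = 0.042). The other gene, Cs2g09040, was named after its values were seen. It had 29.1 to 34.5 FPKM at stage 1, 33.0 to 43.2 at stage 2 and 26.0 to 28.2 at stage 3, a fall from stage 2 to stage 3 of 0.42 (-0.42, adjusted p = 0.00803). Between stages 3 and 1 the 2 genes thus had fitted changes of 0.74 and -0.22, of which the second did not pass (adjusted p = 0.136), and their difference was not tested.

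Among the genes of the U4, U5 and U6 particles, the U5 200 kDa helicase, which unwinds U4 from U6 to activate the spliceosome, declined. Its gene Cs6g02460 had 37.0, 37.5 and 39.8 FPKM at stage 1, 31.95, 32.3 and 33.7 FPKM at stage 2, and 29.9, 29.2 and 26.3 FPKM at stage 3. The 3 stages did not overlap. Stage 3 was lower than stage 1 (-0.41, SE 0.07, adjusted p = 0.00145). The first step (-0.22, adjusted p = 0.0348) was lost when any 1 stage 1 replicate or stage 2 replicate 1 or 2 was left out (adjusted p between 0.059 and 0.122) and without the trend (0.0537), and the second step was -0.19 (adjusted p = 0.0601).

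PRP8, the large protein at the core of U5, is matched by Cs1g12370, which was named after its values were seen. It lay between 34.5 and 35.1 FPKM at stage 1, between 33.0 and 34.4 at stage 2 and between 28.3 and 32.2 at stage 3. Stage 3 was lower than stage 1 (-0.22, adjusted p = 0.0365), a call lost when any 1 stage 1 replicate or stage 3 replicate 1 or 3 was left out (adjusted p between 0.0841 and 0.116) and without the trend (0.0579). The U5 GTPase of 116 kDa (Cs4g01160) ranged from 20.3 to 25.9 FPKM, and the U5 40 kDa genes orange1.1t02151 and Cs7g19660 from 21.6 to 30.6 and from 7.19 to 9.11 FPKM, and none of the 3 passed.

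The proteins Prp3 and PRP4 belong to the U4/U6 particle, and both of their genes are named here after their values were seen. Prp3 (Cs7g28100) had 43.95 to 46.8 FPKM at stage 1, 47.4 to 51.6 at stage 2 and 40.9 to 43.7 at stage 3, with a fall from stage 2 to stage 3 (-0.22, adjusted p = 0.0183) that was lost without stage 3 replicate 3 (0.0637). PRP4 (orange1.1t00656) had 16.0 to 17.1, 15.2 to 19.3 and 12.8 to 13.8 FPKM. Its fall (-0.29, adjusted p = 0.0447) was lost under 13 alternatives, among them leaving out any library except stage 2 replicate 3 (adjusted p between 0.0595 and 0.154).

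The Sm proteins form the ring on which most small nuclear particles are built. The Sm B′ gene Cs2g10375 ranged from 69.8 to 90.4 FPKM and the Sm D3 gene Cs3g27230 from 49.98 to 58.2 FPKM. Neither passed, and their fitted changes between stages 3 and 1 were 0.02 and -0.00220. The U1 A gene orange1.1t04059 ranged from 3.83 to 10.2 FPKM and did not pass either.

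The minor spliceosome removes a rare class of introns with the U11 and U12 particles, and its 35 kDa protein is matched by 3 genes, of which 2 passed the filter. The gene orange1.1t03693 had 7.90, 10.2 and 8.45 FPKM at stage 1, 12.3, 13.5 and 12.9 FPKM at stage 2, and 10.4, 10.1 and 7.74 FPKM at stage 3. Its stage 2 libraries stood above all others. The rise was 0.51 (adjusted p = 0.0124), lost without stage 1 replicate 1 (0.0513), and the fall 0.43 (-0.43, adjusted p = 0.03), lost without stage 2 replicate 2 (0.085) or 3 (0.0623) or stage 3 replicate 3 (0.111).

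The gene orange1.1t05212 had 8.88, 8.52 and 7.51 FPKM at stage 1, 9.68, 7.66 and 9.58 FPKM at stage 2, and 7.82, 3.95 and 4.41 FPKM at stage 3. Stage 3 replicate 1 lay within the stage 2 range and the other 2 far below. The change from stage 2 to stage 3 was -0.68 (adjusted p = 0.0218), and it did not pass without stage 2 replicate 1 (0.0641) or 3 (0.0621) or stage 3 replicate 2 (0.0835) or 3 (0.0756). These genes share a best match, and how reads common to close copies were assigned is not given in the sources used here, so their separate levels are uncertain. Over the class of 13 small nuclear ribonucleoprotein genes past the filter, 1 rose and 1 fell at stage 2, 5 fell and 0 rose at stage 3 against stage 2, and 1 was higher and 1 lower at stage 3 than at stage 1. Among all genes, 21.2% rose and 17.1% fell at stage 2, and 16.2% rose and 19.8% fell from stage 2 to stage 3. At stage 3, 14.4% of all genes were higher and 12.9% lower than at stage 1. The 5 falls became 1 without stage 3 replicate 3, 3 when any 1 stage 2 replicate was left out, and 4 under several others. The 0 rises held in limma at an unadjusted p under 0.05 and without the trend, and became 1 without stage 2 replicate 3. The 1 fall at stage 2 became 0 in the alternatives given for Cs6g02460, and the 1 rise became 0 without stage 1 replicate 1 and 2 without stage 2 replicate 1. Between stages 3 and 1, the 1 lower became 3 after median scaling or quantile normalization and 2 without stage 2 replicate 1 or stage 3 replicate 1 or with the filter at 5 FPKM, and the 1 higher became 0 without stage 1 replicate 3.

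Of the 4 pre-mRNA-processing genes, 3 ended below their stage 1 level, or 1 without the trend. PRP40, which in yeast is a U1 protein that bridges the ends of the intron, is matched by the neighbouring genes Cs8g03720 and Cs8g03730, whose levels may share reads. Cs8g03720 had 57.4, 57.4 and 57.9 FPKM at stage 1, 61.0, 61.4 and 64.5 FPKM at stage 2, and 51.9, 50.4 and 47.5 FPKM at stage 3. Its libraries did not overlap between stages. The step to stage 3 was -0.31 (adjusted p = 0.00146). Stage 3 was below stage 1 by 0.20 on the log2 scale (-0.20, adjusted p = 0.0233), which did not hold when any 1 stage 1 replicate or stage 3 replicate 2 or 3 was left out (adjusted p between 0.0516 and 0.082) or without the trend (0.0622).

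Cs8g03730 had 50.8, 52.9 and 52.8 FPKM at stage 1, 46.0, 43.3 and 48.1 FPKM at stage 2, and 42.9, 37.9 and 41.2 FPKM at stage 3. It was lower at each later stage without overlap, and the difference between stages 3 and 1 was -0.35 (adjusted p = 0.00264). The first and second steps, -0.18 (adjusted p = 0.0539) and -0.17 (0.0779), did not pass. The first passed after median scaling (-0.26, adjusted p = 0.00789) and quantile normalization (-0.24, 0.0149), without stage 2 replicate 3 (-0.22, 0.0361) and without stage 3 replicate 2 (0.0488). The last gene of the class, PRP17-like Cs7g08570, ranged from 22.9 to 29.6 FPKM and did not pass. Thus 3 of the 4 were lower at stage 3 than at stage 1 (12.9% of all genes). From stage 2 to stage 3, 1 of 4 fell (19.8%), and 0 of 4 passed in limma at stage 2 against stage 1 (38.4%). The 3 became 1 without the trend, or when any 1 stage 1 replicate or stage 3 replicate 3 was left out, and the 1 fall became 2 without stage 3 replicate 2. At stage 2 against stage 1, 0 passed without the trend, 1 fell at an unadjusted p under 0.05, and 1, Cs8g03730, fell under the alternatives given for it.

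The pre-mRNA-splicing factors act mostly around the catalytic steps, and the SLU7-like gene differed from the rest of them. SLU7 acts in the second catalytic step in yeast, in the choice of the 3′ splice site. Cs9g10460 had 4.54, 3.30 and 4.02 FPKM at stage 1, 6.76, 3.88 and 4.24 FPKM at stage 2, and 9.42, 9.24 and 10.04 FPKM at stage 3. Stages 1 and 2 overlapped, and all 3 stage 3 libraries lay above both. The mean at stage 3 was 2.42 times that at stage 1 (1.10, SE 0.19, adjusted p = 0.00103) and the step from stage 2 was 0.86 (adjusted p = 0.00402), while stage 2 differed from stage 1 by 0.24 (adjusted p = 0.332). Without stage 2 replicate 1, whose 6.76 FPKM was the highest value before stage 3, the step from stage 2 was 1.06.

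PRP16, an RNA helicase of the second catalytic step in yeast, is matched by Cs7g10520. It had 18.4, 20.7 and 22.5 FPKM at stage 1, 22.3, 24.9 and 26.4 FPKM at stage 2, and 18.5, 17.8 and 15.7 FPKM at stage 3. The stage 3 libraries lay below those of stage 2, and stage 1 overlapped with both. The fall from stage 2 was 0.48 on the log2 scale (-0.48, SE 0.10, adjusted p = 0.00406), and the other comparisons did not pass.

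PRP38 takes part in the activation of the spliceosome, and its gene Cs3g14800 had the highest mean of the class, with 63.8 to 65.4 FPKM at stage 1, 61.7 to 80.9 at stage 2 and 53.5 to 70.6 at stage 3. It did not pass in any comparison. Without stage 2 replicate 3 it passed in both steps, as higher at stage 2 (0.29, adjusted p = 0.0392) and lower at stage 3 against stage 2 (-0.35, 0.0175), and the latter also passed without stage 3 replicate 3 (-0.33, 0.0427). A putative RNA helicase gene, orange1.1t01719, named after its values were seen, had 57.7 to 63.2, 63.6 to 77.0 and 49.5 to 53.9 FPKM, and fell from stage 2 to stage 3 (-0.37, adjusted p = 0.00433). The other helicase genes Cs1g24990, Cs7g10400 and DHX16-like Cs5g11550, the CWC25 gene Cs2g01550 and the SYF1-like gene Cs2g06740 ranged from 12.6 to 56.9 FPKM and did not pass. Of the 10 genes of the class, 0 passed in limma at stage 2 against stage 1, where 38.4% of all genes passed. The count was 1, higher, at an unadjusted p under 0.05, 0 without the trend, and 1, higher, without stage 2 replicate 1 or 3. The 10 fitted changes lay between 0.00240 and 0.25. The counts were 1 higher and 2 lower at stage 3 against stage 2 (16.2% and 19.8% of all genes). The 2 became 4 without stage 2 replicate 1 or 3 or with the filter at 5 FPKM. Between stages 3 and 1 the counts were 1 higher and 0 lower (14.4% and 12.9% of all genes). The 0 became 2 at an unadjusted p under 0.05, stayed 0 without the trend, and became 1 after median scaling or without stage 2 replicate 3. Of the 10 fitted changes, 9 were below 0.

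One regulator remained among the other splicing factors. Suppressor of white-apricot, which in Drosophila represses the splicing of its own transcript, is matched by Cs4g10010, named after its values were seen. It had 39.4, 35.3 and 36.6 FPKM at stage 1, 47.1, 48.8 and 58.8 FPKM at stage 2, and 48.3, 41.6 and 39.1 FPKM at stage 3. All stage 2 libraries were above stage 1 (0.46, SE 0.10, adjusted p = 0.0038), and the later difference of -0.26 did not pass (adjusted p = 0.0679), except without stage 2 replicate 1 (0.0481) or stage 3 replicate 1 (0.0286). Of the 9 other splicing factor genes past the filter, 5 rose and 1 fell at stage 2 (21.2% and 17.1% of all genes), 2 rose and 3 fell at stage 3 against stage 2 (16.2% and 19.8%), and 2 were higher and 1 lower at stage 3 than at stage 1 (14.4% and 12.9%). The 5 rises became 3 after median scaling, without the trend, and without stage 1 replicate 1 or 2, and the 1 fall became 0 without stage 1 replicate 1 or 3 or stage 2 replicate 2. The 2 rises at stage 3 against stage 2 became 1 without the trend and without stage 2 replicate 3 or stage 3 replicate 2. Between stages 3 and 1, the 2 higher became 1 after either scaling, where 2 were lower, without the trend, and without stage 1 replicate 1 or 3 or stage 3 replicate 1 or 2.

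A list of 22 further genes of RNA processing that the words did not pick and that passed the filter was set beside them. Of these, 6 rose and 0 fell at stage 2 against stage 1 (21.2% and 17.1% of all genes), 0 rose and 5 fell at stage 3 against stage 2 (16.2% and 19.8%), and 4 were higher and 2 lower at stage 3 than at stage 1 (14.4% and 12.9%). The last counts became 1 and 1 without the trend, 2 and 2 after median scaling, and 2 and 1 without stage 1 replicate 3 or stage 3 replicate 2, and the 2 lower became 1 when any 1 library other than stage 2 replicate 3 was left out, and 3 without that one. The 5 falls became 2 without stage 2 replicate 1 and 3 without stage 3 replicate 2 or 3. At an unadjusted p under 0.05 in limma, the count of 0 falls at stage 2 became 1 and that of 0 rises at stage 3 against stage 2 stayed 0, and both were 0 without the trend, while 1 fell at stage 2 after median scaling or quantile normalization. Heterogeneous nuclear ribonucleoproteins and polypyrimidine tract-binding proteins, which coat the transcript and often block splice sites, gave 5 of the 6 rises among 11 genes (21.2% of all genes rose). The highest of them, Cs9g09380, had 447, 448 and 451 FPKM at stage 1, 721, 674 and 636 at stage 2, and 548, 527 and 501 at stage 3. Its rise was 0.59 (adjusted p = 5.37e-06) and its fall 0.37 (-0.37, adjusted p = 0.000233).

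The sixth rise belonged to Cs6g18130, a gene matching the SNW/SKI-interacting protein, which is a part of the active spliceosome and in Arabidopsis acts on the splicing of clock genes. It had 3.13, 2.72 and 3.96 FPKM at stage 1, 13.03, 10.6 and 8.90 at stage 2, and 5.61, 7.92 and 5.82 at stage 3, with no overlap between stages. The rise was 3.31-fold (1.47, adjusted p = 7.97e-05) and was followed by a fall of 0.67 (-0.67, adjusted p = 0.015), which did not pass without stage 2 replicate 1 or stage 3 replicate 1 or 3. The 3 kinase genes that phosphorylate serine/arginine-rich proteins did not pass in any comparison (1 rose at stage 2 at an unadjusted p under 0.05). Among all genes, 38.4% passed at stage 2 against stage 1, 36% at stage 3 against stage 2 and 27.3% at stage 3 against stage 1. The summed levels of the kinase genes were 98.7 to 111 FPKM over the 9 libraries. Of 4 genes of nonsense-mediated decay, which removes transcripts with early stop codons and so many misspliced ones, 0 passed in limma at stage 2 against stage 1 (1 was lower at an unadjusted p under 0.05, 0 passed without the trend, 1 fell after median scaling or quantile normalization, and 1 rose without stage 2 replicate 2). In the other comparisons, 1 fell at stage 3 against stage 2 (19.8% of all genes) and 2 were lower at stage 3 than at stage 1 (12.9%). The former became 0 when any 1 stage 2 replicate or stage 3 replicate 2 was left out and after quantile normalization, and the latter became 1 without the trend or when any 1 library other than stage 2 replicate 3 was left out.

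A further 3 genes that the study's supplement describes as splicing factors lay outside the words used here, because their protein match in the table is to hypothetical or uncharacterized proteins. They come from a list chosen on these samples, so their changes are no independent evidence. Cs4g16750 had means of 31.2 ± 1.92, 16.3 ± 0.903 and 75.0 ± 3.11 FPKM at stages 1, 2 and 3. Cs5g03330 had 20.5 ± 1.96, 29.4 ± 6.74 and 55.4 ± 3.07 FPKM, and Cs6g12930 had 57.6 ± 6.63, 95.4 ± 3.23 and 141 ± 3.40 FPKM. All 3 had their highest mean at stage 3, as did the SLU7-like, U2 B″ (Cs1g18430) and U2AF small subunit genes, whereas Cs8g06360, Cs9g16860 and Cs5g11940 had theirs at stage 2.

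Markers of other tissues and of cell division also moved between stages. Of 7 tested markers of green leaf tissue (chlorophyll-binding proteins and the small subunit of Rubisco) 6 rose at stage 2 (21.2% of all genes rose). At stage 3 against stage 2, 2 rose and 3 fell (16.2% and 19.8% of all genes). The summed level of the 8 listed genes was 2013 to 2067 FPKM at stage 1, 3172 to 3876 at stage 2 and 3893 to 4617 at stage 3. Most of it came from Cs2g03780 (stage means of 812, 1750 and 2357 FPKM) and the Rubisco gene Cs6g18680 (875, 964 and 1020 FPKM). Cs1g14270 was listed at 0 in 7 of the 9 libraries. Of 5 markers of dividing cells 3 fell at stage 2 (17.1% of all genes fell). Among the 3 were the cyclin-B2 genes Cs3g27260 (stage means of 1.84, 0.11 and 0.85 FPKM) and Cs8g01560 (1.72, 0.047 and 0.77 FPKM). Both passed the filter through stage 1, Cs3g27260 also with stage 3 replicate 3. Their fall at stage 2 was thus partly fixed by the filter. The summed level of the 5 was 357.5 to 375 FPKM at stage 1, 274 to 317 at stage 2 and 286 to 345 at stage 3. Of 8 tested shoot meristem markers 2 rose and 3 fell at stage 2 (21.2% and 17.1% of all genes). A WUSCHEL-like gene, whose product maintains stem cells, lay at 0.80 to 1.14 FPKM at stage 1, 0 to 0.18 at stage 2 and 0.65 to 1.02 at stage 3. It was among the 3 that fell and passed the filter only through stages 1 and 3, so its fall was partly fixed by the filter. A list of 22 genes drawn by the names of floral organ regulators held mostly agamous-like MADS-box genes, not all of them specific to floral organs, and 1 of these, Cs5g10050 (AGL19-like), made up most of its summed level of 147 to 177 FPKM. Of the 13 tested genes of this list, 1 rose and 1 fell at stage 2 (21.2% and 17.1% of all genes). At stage 3 against stage 2, 1 rose and 1 fell (16.2% and 19.8%). The SEPALLATA 1-like gene Cs7g11800, chosen after its values were seen, had 6.16 to 7.26 FPKM at stage 1, 1.59 to 5.83 at stage 2 and 8.36 to 11.6 at stage 3. It fell (-0.84, adjusted p = 0.0355) and then rose (1.30, adjusted p = 0.00393). The other that passed in both steps, AGL16-like Cs3g16896 at 0.16 to 2.43 FPKM, rose (1.21, adjusted p = 0.00335) and then fell (-1.03, adjusted p = 0.00907). Cs3g16896 passed the filter only through its stage 2 libraries. Its rise and fall, and its place in the counts above, were thus partly fixed by the filter. Another SEPALLATA 1-like gene, Cs5g12270, passed in neither step. In bulk samples a lower level from fewer cells of a type cannot be told apart from less RNA per cell, and the part of these shifts in the splicing gene results was not tested.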

How the data were processed

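RNA sequencing was carried out on 9 libraries of lemon buds, 3 per stage. Per the study's methods, low-quality reads were removed (FASTX-Toolkit) and the rest aligned to the sweet orange genome (BWA), and the authors deposited FPKM values per gene. No source used here names the tool versions or the counting program. Every library's column entered the fits. The members, classes and gene lists were chosen with earlier results of these data known. Genes with at least 1 FPKM in at least 3 libraries were tested with limma 3.58.1 (trend, all 9 libraries in the fit) in R 4.3.3 on log2(FPKM + 1), with Benjamini-Hochberg adjustment over 17729 genes; summaries and figures used Python 3.11.15, numpy 2.4.6, pandas 2.3.3 and matplotlib 3.10.9. The fit was first run on simulated data for stage 2 against stage 1, with 200 of 17729 genes changed by more than the calling threshold. It called 189 of the 200, with 4 false calls. Smaller changes judged by adjusted p alone, like most of those reported here, were not simulated.

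The rule for naming genes took members past the filter that were called, the 2 highest by mean FPKM in each class, and the largest rise and fall with adjusted p under 0.05 in each class and comparison. It gave 20 genes; 8 others that passed in some comparison are named as chosen after their values were seen. Depth is unknown, since the files hold no counts. The p-values measure the spread between the 3 tree groups sampled at each stage. Alternatives were another pseudocount (0.1), no filter, a filter at 5 FPKM, median scaling, quantile normalization, limma without trend, a fit of the compared stages only, the replicate block, a probability in the manner of NOISeq (0.8 or more, zeros set to 0.01), and each library left out. Sequences and genome coordinates were not used here.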

Additional observations from a re-analysis of the deposited data

How the results depend on the processing

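Among the 28 named genes, no change that passed turned its sign under an alternative, whereas 9 that did not pass did under at least 1, 5 of them under median scaling. Of their 84 values, 39 passed, 21 of these passed under every alternative, 18 failed under at least 1, and 13 that did not pass did so under at least 1. At stage 2 against stage 1, leaving out 1 library gave 5 to 9 rises (5 without stage 1 replicate 1), 0 to 3 falls (0 without stage 1 replicate 1 or 3 or stage 2 replicate 2) and 1 called gene. At stage 3 against stage 2 it gave 2 to 3 rises, 11 to 15 falls and 1 to 2 called genes (2 without stage 2 replicate 1 or stage 3 replicate 1). At stage 3 against stage 1 it gave 4 to 6 higher, 3 to 7 lower (3 when any 1 stage 1 replicate was left out) and 1 called gene. Without stage 2 replicate 3, the counts were 9 rises and 3 falls, then 3 and 15, then 6 and 7.

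Same-numbered libraries of different stages had correlations of their deviations between -0.10 and 0.03 over 9 pairs, and 1 of 9 libraries correlated best with its own number, so the numbers were not taken as pairs. With the replicate block, 7 genes rose and 1 fell at stage 2 against stage 1, 3 rose and 13 fell at stage 3 against stage 2, and 6 were higher and 4 lower at stage 3 than at stage 1. The block ended the calls of Cs6g02460 (adjusted p = 0.0664) and Cs4g19620 (0.0775) at stage 2, of PRP4 orange1.1t00656 (0.0772) at stage 3 against stage 2, and of Cs7g28020 (0.0698), Cs1g12370 (0.0592) and Cs8g03720 (0.0516) at stage 3 against stage 1. Without the trend there was 1 fall at stage 2, and 3 higher and 3 lower at stage 3 against stage 1. Median scaling gave 10 lower at stage 3 against stage 1. By the NOISeq-style probability 0 genes were called there, Cs9g10460 having 0.798.

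The median log2 fold change of the members at stage 2 was 0.12 with no filter, 0.068 with median scaling and 0.086 with quantile normalization (0.088 to 0.16 with a library left out). For the glycine-rich class it was 0.73 at stage 2 and 0.079 at stage 3 against stage 1 with a pseudocount of 0.1, and 0.19 at the latter with the filter at 5 FPKM (0.069 to 0.31 with a library left out), while the main values of 0.41 and 0.31 are those of 1 gene each, the first of Cs8g14850, which passed the filter only through stages 2 and 3. With median scaling the serine/arginine-rich median at stage 2 was -0.022, and that of the pre-mRNA-processing class -0.13, or -0.11 with quantile normalization. The pre-mRNA-splicing median at stage 2 was 0.082 to 0.17 with a library left out. The cause of these shifts was not tested. With 3 replicates per stage, an exact permutation test of 1 gene cannot go below p = 0.1.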
